A study of Mus musculus with 12 samples.

Results

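The enzymes that write methylation on lysine 9 of histone H3 (H3K9), the co-repressor complex that brings one of them to its targets, and the HP1 proteins that bind the mark were followed at the RNA level in pre-iPSCs. Pre-iPSCs are cells that stopped late in reprogramming, before the pluripotency genes are active. The set was chosen by gene symbol and holds 9 of the 20325 genes in the tables: Ehmt1, Ehmt2, Suv39h1, Suv39h2, Setdb1, Trim28, Cbx1, Cbx3 and Cbx5. All 9 had enough reads to be tested. RNA was sequenced from a partially reprogrammed mouse iPSC line exposed for 48 h to the solvent DMSO (the control), to ascorbic acid (AA) at 50 µg per ml, to the inhibitor pair 2i (PD0325901 against MEK at 1 µM, CHIR99021 against GSK at 3 µM), or to AA+2i. The 12 libraries are 3 biological replicates (letters A, B and C) of each of these 4 conditions. The line was grown in serum-containing embryonic stem cell medium on irradiated feeders before the experiment, and all 4 groups were treated without the feeder layer. The libraries come from a single pre-iPSC line, so the spread between them does not cover differences between lines.

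H3K9 methylation marks silent chromatin. Ehmt1 and Ehmt2 (also called Glp and G9a) form a heterodimer that places mono- and dimethylation in euchromatin, Suv39h1 and Suv39h2 are paralogs that place trimethylation in pericentric heterochromatin, and Setdb1 trimethylates retroelements and imprinted loci, to which Trim28 (Kap1) and its zinc-finger partners bring it. The HP1 proteins, HP1β (Cbx1), HP1γ (Cbx3) and HP1α (Cbx5), read the mark through a chromodomain. Loss of H3K9 methylation is a late step of reprogramming, and AA is a cofactor of the jumonji demethylases that remove it.

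The tables give, for each gene and library, the expected count (reads assigned to the gene by RSEM, not normalized) and the TPM (an abundance scaled for gene length and to the same total in each library). Expected counts summed to between 16173322 and 54392719 per library. The deepest were DMSO B (49270873) and AA B (54392719), both without 2i, against 22914785 in 2i B and 23653287 in AA+2i B. Of 10 genes of pluripotent and late reprogramming cells, 1 (Fut4) was under 1 TPM in every library. Cdh1 (E-cadherin) was at 31.8 to 49.95 TPM with DMSO, and Epcam, Sall4, Dppa5a and Pou5f1 were also above 31.8 TPM there. The others were low with DMSO: Nanog at 2.93 to 7.14 TPM, Zfp42 at 1.71 to 3.1, Lin28a at 0.57 to 2.44 and Esrrb at 0.15 to 0.31. Pou5f1, which encodes Oct4, was far higher, at 1864.89 to 9673.43 TPM with DMSO. The study made its pre-iPSCs with introduced Oct4, and RNA of the introduced and the endogenous gene was not told apart here. Of 10 fibroblast and feeder markers, 6, such as Col3a1, were under 1 TPM in all 12 libraries. Thy1 was at 2.64 to 7.21 TPM with DMSO and 6.69 to 15.99 with AA, and Fbn1 at 3.1 to 10.44 with DMSO. The sum of the 10 markers was 8.93 to 21.8 TPM with DMSO and 8.98 to 14.7 TPM with AA+2i. Dusp6, a target of MEK signalling, was lower with 2i (log2 fold change −3.00) and Axin2, a target of the pathway that GSK restrains, was higher (5.83), both at an adjusted p under 0.05 (edgeR). In bulk RNA, fewer cells that express a gene and less of its RNA per cell cannot be told apart.

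The libraries differed in how read counts depended on the GC content of transcripts, and this touches most of the 9 genes. A smooth curve of each library's deviation from the mean of the 12 libraries (log2 CPM, counts scaled to library size) against transcript GC content was at −1.71 in DMSO A and −1.48 in AA A at 60% GC, against −0.55 to 1.14 in the other 10 libraries. At 40% GC the same curves were at 0.89 and 0.70, against −0.60 to 0.27. Transcripts of Ehmt2 (60.8% GC) and Trim28 (59.6%) are rich in G and C (percentiles 96.6 and 94.4 of all genes), those of Cbx3 (41.1%), Cbx5 (42.6%) and Suv39h2 (43.0%) poor in them (percentiles 9.9, 15.8 and 17.5), and those of Cbx1 (47.5%), Setdb1 (49.4%), Suv39h1 (50.0%) and Ehmt1 (51.4%) lie near the middle. The contrast can be read in the sequences themselves. Below are 90 coding bases of the third exon of Ehmt2 (chr17:35036646-35036735, plus strand, 61.1% GC), Suv39h1 (chrX:7648233-7648322, minus strand, 50.0% GC) and Cbx3 (chr6:51425248-51425337, plus strand, 41.1% GC), from the NCBIM37 (mm9) transcripts, each inside a single exon and chosen because its GC content is close to that of its whole transcript. G and C are in capitals.
Ehmt2: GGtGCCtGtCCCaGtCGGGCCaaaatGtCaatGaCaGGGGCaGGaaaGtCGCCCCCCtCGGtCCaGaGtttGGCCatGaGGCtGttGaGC
Suv39h1: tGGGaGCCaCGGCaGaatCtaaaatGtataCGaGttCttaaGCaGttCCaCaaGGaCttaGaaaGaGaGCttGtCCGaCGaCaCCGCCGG
Cbx3: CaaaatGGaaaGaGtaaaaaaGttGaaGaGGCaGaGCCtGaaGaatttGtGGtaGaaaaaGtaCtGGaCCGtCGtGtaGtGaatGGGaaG
Values are therefore given as deposited and, beside them, after each library's GC curve was removed (the GC correction). The curves also differed between conditions. At 60% GC they were at −1.71, 0.41 and −0.13 in DMSO A, B and C and at 0.5, −0.06 and 1.14 in AA+2i A, B and C. A treatment effect that follows GC content cannot be told apart from the curve and would be removed with it.

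**Figure D1:**
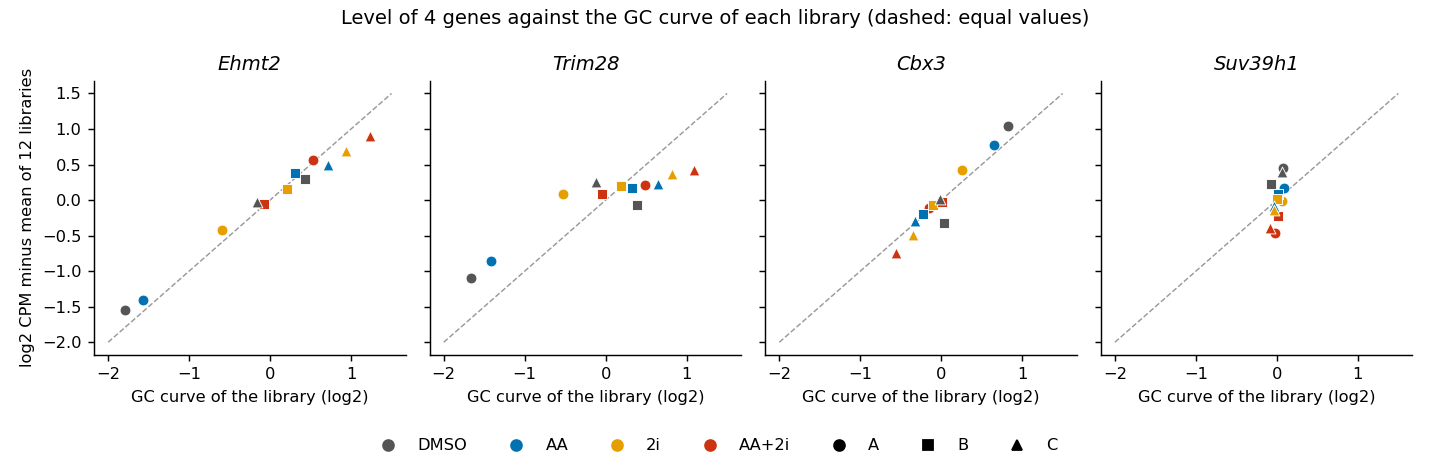
Each point is 1 library. The horizontal axis is the value of that library's GC curve at the GC content of the gene (log2) and the vertical axis the gene's log2 CPM minus its mean over the 12 libraries. Colours give the condition and marker shapes the replicate letter. Ehmt2 follows the dashed line of equal values from DMSO A (−1.79 on the curve, −1.55 observed) to AA+2i C (1.23 and 0.90), whereas the curve is near 0 for Suv39h1 in every library. Along the vertical axis the DMSO libraries of Suv39h1 (0.22 to 0.45) lie above all others and its AA+2i libraries (−0.46 to −0.23) below all others. Those of AA (−0.09 to 0.17) and 2i (−0.14 to 0.02) overlap.

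Of the 9 genes, 1 passed the test against DMSO when the replicate letter was not in the model. Suv39h1 fell with AA+2i, and the other 8 did not pass the test in any of these comparisons with DMSO. With the letter in the model Cbx5 also passed, as did Setdb1 with 2i after the GC correction (given at the end). Suv39h1 encodes a trimethylase of pericentric heterochromatin and lies on the X chromosome (mm9 chrX:7638297-7651886, minus strand). Its level was 90.81, 92.50 and 86.49 TPM in DMSO A, B and C. It was 81.65, 72.71 and 62.37 TPM with AA, 65.22, 62.68 and 52.51 TPM with 2i, and 46.69, 55.59 and 41.11 TPM with AA+2i. The 3 DMSO libraries were the highest of the 12, and neither AA, 2i nor AA+2i overlapped them. In means, DMSO was at 89.9 ± 3.10 TPM, AA at 72.2 ± 9.65, 2i at 60.1 ± 6.73 and AA+2i at 47.8 ± 7.30 (SD, n = 3). Between 1483 and 6428 reads per library lay behind these values.

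Against DMSO, the log2 fold change of Suv39h1 with AA+2i was −0.71 (SE 0.15, 95% interval −1.05 to −0.38, adjusted p = 0.0150, edgeR's quasi-likelihood test with Benjamini-Hochberg adjustment over 13400 genes). This was 1 of 9 genes in a comparison in which 8.34% of all tested genes were called and 4.41% were called lower. With 2i alone it was −0.40 (SE 0.15, adjusted p = 0.205, edgeR) and with AA alone −0.30 (SE 0.15, adjusted p = 0.641, edgeR). With the GC correction the differences were −0.66 for AA+2i (SE 0.096, adjusted p = 0.000673, edgeR), −0.38 for 2i (SE 0.096, adjusted p = 0.0229) and −0.29 for AA (SE 0.096, adjusted p = 0.129). The sizes stayed close to where they were and the errors narrowed. On this scale 19.6% of all tested genes were called with AA+2i, 12.1% with 2i and 4.09% with AA.

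The 4 conditions are the combinations of 2 treatments, so the effect of each was also averaged over the presence and absence of the other. The average effect of 2i on Suv39h1 was −0.41 on the log2 scale (SE 0.11, adjusted p = 0.0276, edgeR), where 13.3% of all tested genes were called and 7.87% were lower, and −0.37 with the GC correction (SE 0.068, adjusted p = 0.00173, edgeR, background 26.3%). The average effect of AA was −0.31 (SE 0.11, adjusted p = 0.174, edgeR), and −0.29 with the correction (SE 0.068, adjusted p = 0.0183, edgeR, background 10.4%). No member was called for the average effect of AA without the correction by edgeR (background 4.22%), where 1 had an unadjusted p under 0.05, whereas DESeq2 called 1, Suv39h1. Adding 2i to AA gave −0.42 (SE 0.15, adjusted p = 0.160, edgeR), or −0.37 with the correction (adjusted p = 0.0239, background 14.8%), and adding AA to 2i gave −0.31 (SE 0.15, adjusted p = 0.576, edgeR). The interaction (how far AA+2i departs from the sum of both single treatments) was −0.02 with a 95% interval of −0.49 to 0.45, and 0.01 with an interval of −0.28 to 0.31 after the GC correction. These comparisons share libraries and are not independent of each other.

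The call with AA+2i was lost when only the DMSO and AA+2i libraries entered the model (−0.72, adjusted p = 0.121, edgeR), without AA+2i A (−0.66, adjusted p = 0.0693) and without AA+2i C (−0.69, adjusted p = 0.0667). It held without DMSO A and AA A, the libraries that stand apart in GC content (−0.68, adjusted p = 0.0271, edgeR). The call for the average effect of 2i was lost, at adjusted p of 0.0532 to 0.0852 (edgeR), when DMSO A, AA A, AA B, 2i A, 2i B, 2i C, AA+2i A or AA+2i C was left out, and at 0.0583 without both DMSO A and AA A. With the GC correction both calls held without any single library and without those 2. The corrected call with 2i alone was lost without DMSO A, 2i A, 2i B or 2i C (adjusted p = 0.0559 to 0.0944, edgeR), that for 2i added to AA without AA A, AA B, AA+2i A or AA+2i C (0.0622 to 0.0886), both of these also without DMSO A and AA A together (0.0622 and 0.0705), and that for the average effect of AA without 2i B or AA C (0.0622 and 0.0574).

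Genes of DNA replication and division were also measured, 16 in all, among them the Mcm genes, Pcna and Mki67. Their summed level was 4203 to 5839 TPM in the DMSO libraries, 3867 to 5753 in AA, 3082 to 4282 in 2i and 2445 to 3428 in AA+2i. In the uncorrected edgeR fit none of the 16 passed the test for AA+2i against DMSO, where 6 had an unadjusted p under 0.05 and DESeq2 called 1. Corrected for GC, 4 of the 16 were called with AA+2i, all lower (Mcm7, Rrm1, Cdc6 and Top2a). In that comparison 19.6% of all tested genes were called in either direction, and 1428 of 13400 were lower. Whether the replication genes have a part in the Suv39h1 result was not tested.

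**Figure D2:**
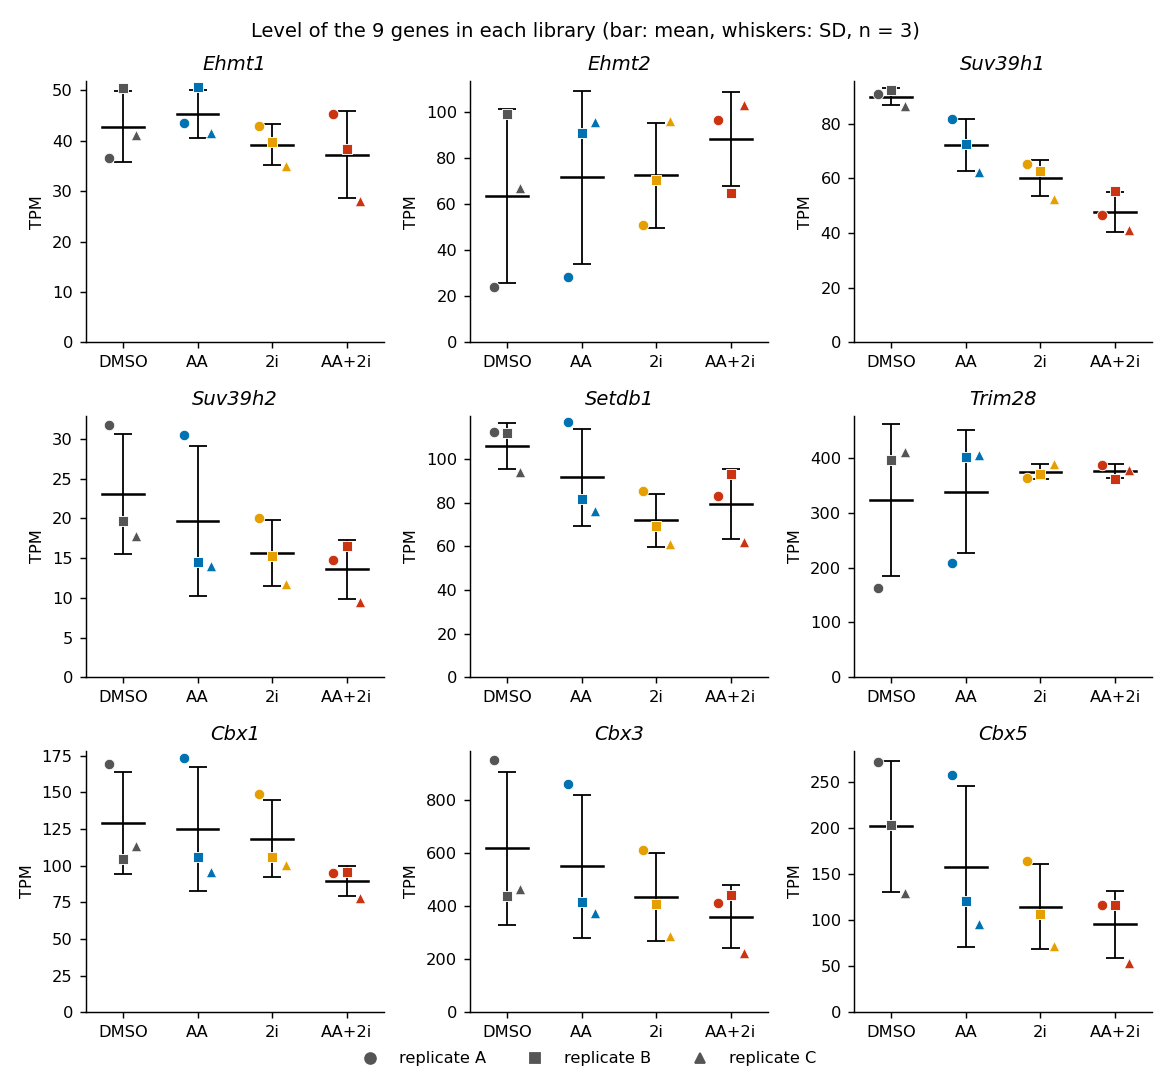
TPM of the 9 genes in each library by condition, with the mean and SD of 3 replicates and the replicate letter as the marker shape. Suv39h1 stands highest in the 3 DMSO libraries (86.5 to 92.5 TPM) and lowest with AA+2i (41.1 to 55.6 TPM), whereas in Ehmt2, Trim28, Suv39h2 and Cbx3 the A libraries of DMSO and AA lie apart from the B and C libraries.

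Suv39h2, the paralog of Suv39h1 on chromosome 2 (mm9 chr2:3373087-3392303, minus strand), was the lowest of the 9 genes. It was at 31.77, 19.69 and 17.76 TPM in DMSO A, B and C and at 30.50, 14.49 and 13.98 TPM in AA A, B and C. With 2i it was at 20.01, 15.23 and 11.68 TPM and with AA+2i at 14.75, 16.58 and 9.46 TPM. In both DMSO and AA the A library was the highest by a wide margin. The fold change with AA+2i was −0.59 before the GC correction (SE 0.34, adjusted p = 0.283, edgeR) and −0.12 after it (95% interval −0.35 to 0.12). The ratio of Suv39h1 to Suv39h2 within a library does not depend on the scaling between libraries. As deposited, the log2 TPM ratio was 2.01 ± 0.43 in DMSO, 1.97 ± 0.48 in AA, 1.97 ± 0.24 in 2i and 1.84 ± 0.24 in AA+2i (SD, n = 3). The difference with and without 2i was −0.0825 (exact permutation test within strata, two-sided, p = 0.695, adjusted p = 0.834), smaller than the spread between replicates. Corrected for GC, the ratio was 2.21 ± 0.06, 1.98 ± 0.13, 1.92 ± 0.04 and 1.66 ± 0.11 in the same order. On that scale it was lower with 2i by −0.303 and with AA by −0.246, each with p = 0.005, the smallest that the exact permutation test can give, and an adjusted p of 0.03 over 12 tests of shares and ratios.

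**Figure D3:**
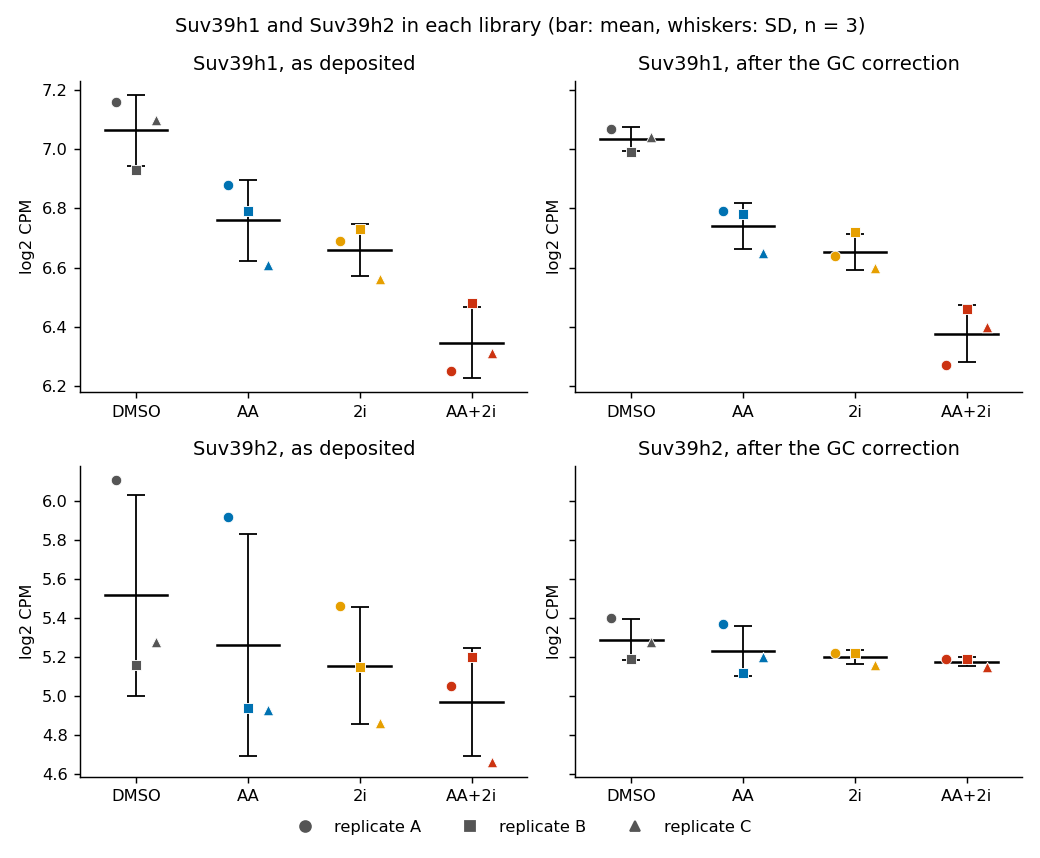
log2 CPM of Suv39h1 (top) and Suv39h2 (bottom) in each library, as deposited (left) and after the GC correction (right), with the mean and SD of 3 replicates. The vertical axes do not start at 0. The steps of Suv39h1 from DMSO (mean 7.035 after the correction) to AA+2i (6.37) stay in place, whereas those of Suv39h2 shrink to 5.29 and 5.18.

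Ehmt1 and Ehmt2, the heterodimer that writes H3K9 mono- and dimethylation, did not pass the test in any comparison. Ehmt1 (mm9 chr2:24646289-24775129, minus strand) was at 28.04 to 50.70 TPM over all 12 libraries, the smallest ratio of highest to lowest in the set (1.81). Against DMSO its fold change was 0.12 in AA, 0.07 in 2i and 0.00 in AA+2i, the last with a 95% interval of −0.37 to 0.37. Ehmt2 (mm9 chr17:35035414-35050997, plus strand) was at 23.89, 99.28 and 67.02 TPM in DMSO A, B and C and at 28.54, 90.90 and 95.74 TPM in AA A, B and C. It was at 50.96, 70.49 and 96.24 TPM with 2i and at 96.36, 64.93 and 103.12 TPM with AA+2i. The A libraries of DMSO and AA were again apart from the others, here on the low side. As deposited its fold change with AA+2i was 0.76 (SE 0.55, 95% interval −0.44 to 1.96). Under the GC correction the sign turned to −0.16 (SE 0.16, interval −0.51 to 0.18), and the standard deviation within conditions went from 0.81 to 0.20 in log2 CPM, while the median of all tested genes went from 0.41 to 0.26.

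Setdb1 (mm9 chr3:95127447-95161124, minus strand) was at 112.21, 111.82 and 93.82 TPM with DMSO and at 85.23, 69.36 and 60.92 TPM with 2i, which did not overlap. With AA it was at 116.86, 81.79 and 76.01 TPM and with AA+2i at 83.20, 93.12 and 61.77 TPM, the latter all below the DMSO libraries. The fold change with 2i was −0.38 (SE 0.19, adjusted p = 0.350, edgeR) and after the GC correction −0.35 (SE 0.11, 95% interval −0.60 to −0.10, adjusted p = 0.0733, edgeR), which misses the threshold in both. Adding AA to 2i gave 0.16 and, corrected, 0.21 (95% interval −0.04 to 0.46).

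Trim28 (mm9 chr7:13609501-13616384, plus strand), the co-repressor that bridges KRAB zinc-finger proteins and Setdb1, was at 163.16 TPM in DMSO A and 208.53 TPM in AA A, and at 362.20 to 409.98 TPM in the other 10 libraries. The 10 libraries other than DMSO A and AA A thus lay within a narrow band. Its fold change with AA+2i was 0.44 as deposited (95% interval −0.32 to 1.21) and −0.45 after the correction (−1.22 to 0.31), so no direction can be given. It was also the gene whose spread widened under the correction, with a standard deviation within conditions of 0.48 before and 0.50 after. Across libraries its GC curve ran from −1.66 to 1.09, and its own log2 CPM from 1.09 below its mean to 0.42 above it. The log2 TPM ratio of Setdb1 to Trim28 was −1.50 ± 0.84 with DMSO and −2.26 ± 0.33 with AA+2i, and the difference with and without 2i was −0.657 as deposited (exact permutation test, p = 0.1, adjusted p = 0.5) and 0.0362 after the correction (p = 0.89).

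None of the 3 HP1 genes passed the test against DMSO, as deposited or corrected, when the replicate letter was not in the model. Cbx3 (mm9 chr6:51420359-51433703, plus strand) was at 948.58, 439.50 and 462.42 TPM in the DMSO libraries, 858.48, 416.57 and 373.31 TPM in AA, 612.81, 407.35 and 285.24 TPM in 2i, and 413.14, 442.15 and 222.87 TPM in AA+2i. The A libraries of DMSO, AA and 2i were the highest of the 12. Its fold change with AA+2i was −0.63 as deposited (95% interval −1.54 to 0.28) and −0.04 after the correction (−0.37 to 0.29). Cbx1 (mm9 chr11:96650441-96669954, plus strand) was at 104.67 to 169.09 TPM with DMSO and 78.05 to 95.92 TPM with AA+2i, with fold changes of −0.34 (95% interval −0.93 to 0.24) and, corrected, −0.10 (−0.41 to 0.22).

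Cbx5 (mm9 chr15:103021975-103070247, minus strand) had the largest fold change of the 9 as deposited. It was at 272.16, 203.14 and 129.76 TPM in the DMSO libraries, 257.57, 120.99 and 95.44 TPM in AA, 163.74, 106.77 and 72.38 TPM in 2i and 116.75, 115.94 and 53.36 TPM in AA+2i. Every AA+2i library lay below every DMSO library, and the 3 replicates of each condition spread widely. The fold change with AA+2i was −0.91 (SE 0.42, 95% interval −1.83 to 0.01, adjusted p = 0.206, edgeR) and after the correction −0.44 (SE 0.18, interval −0.84 to −0.04, adjusted p = 0.118, edgeR), neither past the threshold.

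The share of each paralog in the summed TPM of the 3 HP1 genes was compared within libraries. Cbx3 held 64.2% ± 4.86 in DMSO, 65.8% ± 0.94 in AA, 64.7% ± 2.17 in 2i and 65.5% ± 2.40 in AA+2i (SD, n = 3). Cbx1 held 14.1% ± 1.97 with DMSO and 18.4% ± 3.15 with 2i. Cbx5 held 21.7% ± 4.77 in DMSO, 18.6% ± 1.55 in AA, 16.9% ± 0.99 in 2i and 17.2% ± 1.88 in AA+2i. The Cbx5 share was lower with 2i than without it by −3.11 percentage points (exact permutation test within strata, two-sided, p = 0.04, adjusted p = 0.48), which does not pass the adjustment, and by −3.15 after the GC correction (exact test, p = 0.04, adjusted p = 0.16). No other share differed with 2i or AA at p under 0.05.

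**Figure D4:**
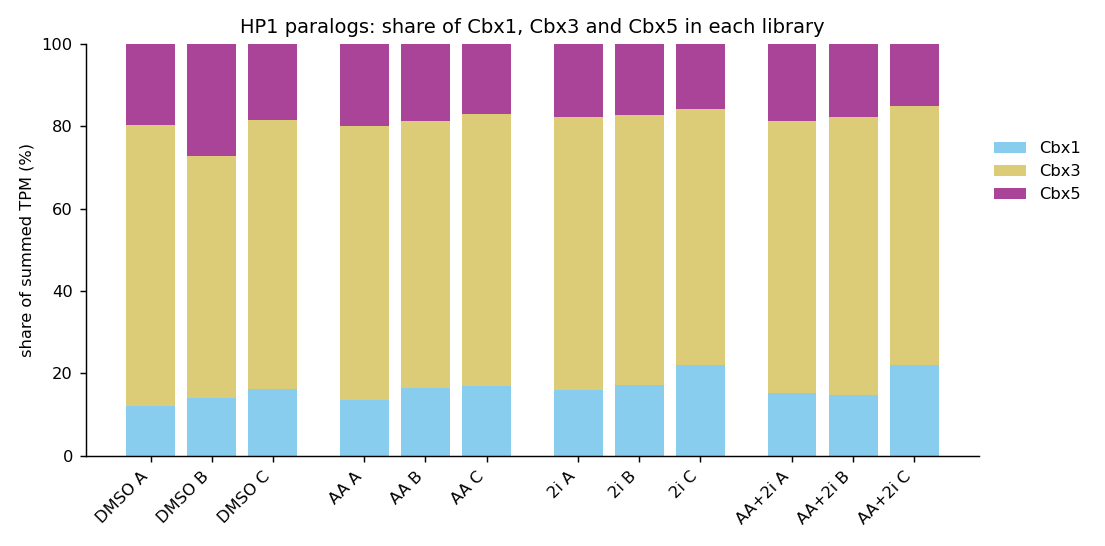
Share of Cbx1, Cbx3 and Cbx5 in their summed TPM, as stacked bars from 0 to 100%, in each of the 12 libraries. Cbx3 holds 58.8% to 68.3% in each DMSO library and the Cbx5 share is highest in DMSO B (27.2%).

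Over the whole set, 5 of the 9 genes had all AA+2i libraries below all DMSO libraries in TPM (Suv39h1, Suv39h2, Setdb1, Cbx1 and Cbx5), as had 22.5% of all tested genes. With 2i there were 2, Suv39h1 and Setdb1 (14.7% of all tested genes), and with AA 1, Suv39h1 (4.13%). On GC-corrected log2 CPM the members wholly below DMSO were Suv39h1 with AA+2i (17.1% of all tested genes), Suv39h1 and Setdb1 with 2i (15.2%), and Suv39h1 with AA (8.06%). The median log2 fold change of the 9 with AA+2i was −0.34 as deposited and −0.13 after the correction, beside −0.02 and 0.00 over all tested genes, with 2i it was −0.36 and −0.10, and with AA −0.19 and −0.07. As deposited, edgeR called no member with AA (background 1.34%) or with 2i (4.42%), where 0 and 1 had an unadjusted p under 0.05, and DESeq2 and limma called none either. It called none for AA+2i against 2i (background 0.91%), with 0 at an unadjusted p under 0.05 and none called by DESeq2 or limma. For AA+2i against AA (background 6.1%) 1 was at an unadjusted p under 0.05 and DESeq2 called 1, Suv39h1, and for the interaction (background 0.0149%) there was none by any of the 3 tools, at either threshold. After the GC correction edgeR called Suv39h1 with 2i (background 12.1%) and for AA+2i against AA (14.8%). For the corrected interaction Setdb1 (0.39) had an unadjusted p under 0.05 (edgeR), as had 655 of 13400 tested genes, and no member was called.

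**Figure D5:**
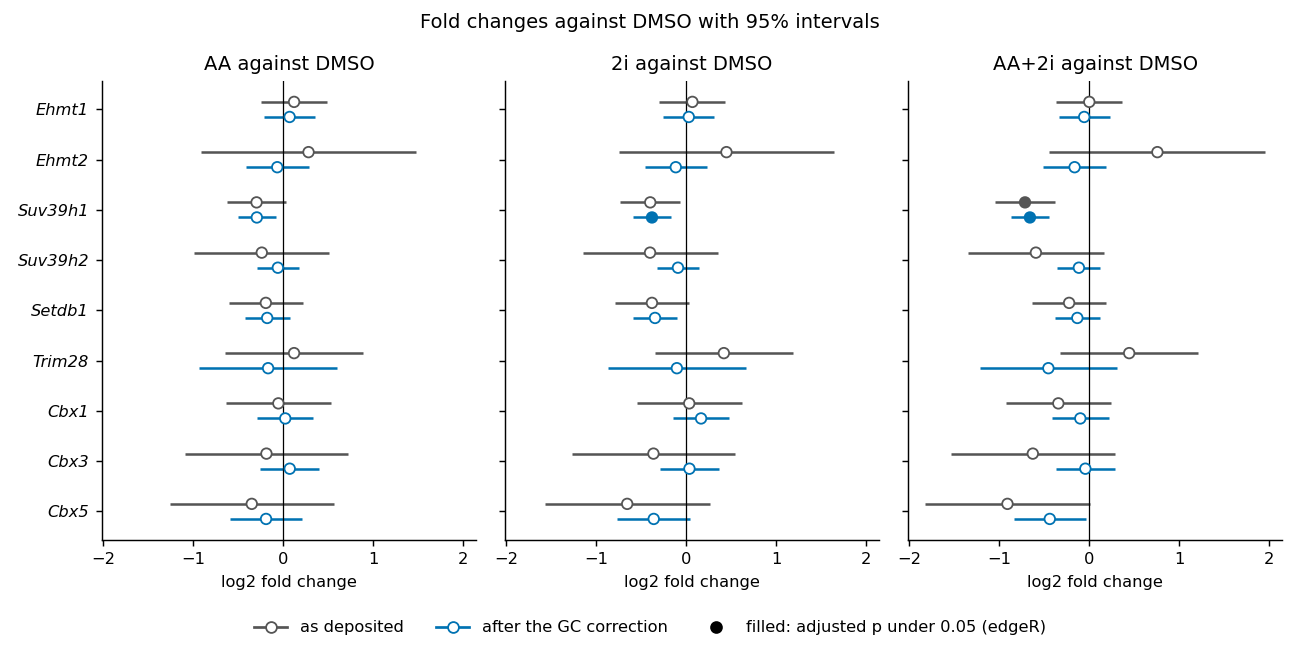
log2 fold change of each gene against DMSO with its 95% interval, for AA, 2i and AA+2i, as deposited (grey) and after the GC correction (blue). Filled points passed an adjusted p of 0.05 (edgeR). Only Suv39h1 is filled, with AA+2i on both scales and with 2i after the correction, and the points of Ehmt2 and Trim28 change sign between the scales in all 3 comparisons, those of Cbx3 with AA and 2i, that of Cbx1 with AA and that of Ehmt1 with AA+2i (0.00 and −0.06).

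The levels of the 9 genes, compared per length as TPM over the 12 libraries, ran from Cbx3 (mean 490.2 TPM) and Trim28 (353.1) through Cbx5 (142.3), Cbx1 (115.6), Setdb1 (87.2), Ehmt2 (73.96) and Suv39h1 (67.5) to Ehmt1 (41.1) and Suv39h2 (17.99). Neighbours were compared on log2(TPM + 1) within libraries by an exact two-sided sign-flip test, adjusted over 8 pairs. The order was taken from the same TPM, without the GC correction, over libraries of 4 conditions of 1 line. The p-values thus describe how steady the order was in these libraries and are not independent support for it. Suv39h1 exceeded Ehmt1 and Ehmt1 exceeded Suv39h2 in 12 of 12 libraries each (adjusted p = 0.00195 for both, exact test). Trim28 exceeded Cbx5 in 10 of 12 libraries, all but DMSO A and AA A (adjusted p = 0.00488, exact test). Cbx1 exceeded Setdb1 in 11 of 12 (adjusted p = 0.00391, exact test). Cbx3 and Trim28, Cbx5 and Cbx1, Setdb1 and Ehmt2, and Ehmt2 and Suv39h1 did not differ beyond their spread.

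The genes whose log2 CPM was most like that of a member over the 12 libraries, after the GC correction, were Zcwpw1 (Pearson's r = 0.96), H2afy2 (0.957) and Runx2 (0.953) for Suv39h1, at mean levels of 3.28, 8.21 and 3.22 TPM, and Nipbl (0.99), Ubr3 (0.99) and Phip (0.982) for Cbx5. For the other members the closest gene was Ints7 (0.904) for Ehmt1, Parn (0.947) for Ehmt2, Cep63 (0.954) for Suv39h2 and Htr5b (0.898) for Setdb1. It was Rcor2 (0.98) for Trim28, Mycl1 (0.948, at a mean level of only 0.239 TPM) for Cbx1 and Uap1 (0.958) for Cbx3. They are the highest of all tested genes, over libraries that share conditions and differ in depth, and are given as a description. Among the members themselves, Ehmt2 and Suv39h2 had r = −0.99 over the 12 libraries as deposited and 0.66 after the correction, and Ehmt2 and Cbx3 −0.97 and 0.78. Ehmt2 and Trim28, both rich in G and C, had 0.93 and 0.92.

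The other genes that write, erase or read H3K9 methylation were described by lists. Of 11 H3K9 demethylases 10 were tested, and with AA+2i none passed the edgeR test as deposited, with 3 at an unadjusted p under 0.05 and 1 called by DESeq2. Corrected for GC, 2 of the 10 fell, Jhdm1d (−1.41) and Phf2 (−0.69). In that comparison 19.6% of all tested genes were called in either direction, and 1428 of 13400 were lower. With 2 genes the share cannot be set apart from this background. Kdm3b, a jumonji demethylase of H3K9me2 and H3K9me1, was at 47.7 to 67.5 TPM in DMSO, 45.5 to 61.3 in AA, 28.4 to 40.2 in 2i and 27.9 to 45.1 in AA+2i. Neither group with 2i overlapped either group without it, but narrowly so (45.06 TPM in AA+2i, 45.45 in AA). The share of all genes separated in this way was not computed. The average fold change of Kdm3b with 2i was −0.45 (SE 0.13, adjusted p = 0.0387, edgeR, background 13.3%). After the correction it was −0.52 (adjusted p = 0.0132, edgeR, background 26.3%), whereas that with AA was 0.08 uncorrected (adjusted p = 0.815, edgeR). For 2i against DMSO none of the 10 demethylases was called by edgeR on either scale (background 4.42% and 12.1%). Kdm1a, a flavin-dependent demethylase, had a fold change of −0.53 with AA+2i (SE 0.22, adjusted p = 0.169, edgeR).

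Of 19 partners of the methyltransferases, which were all tested, 1 fell with 2i and with AA+2i in the uncorrected fit. The background was 4.42% and 8.34% of all tested genes in either direction, and 379 and 591 of 13400 were lower. With 1 gene the share cannot be set apart from this background. The gene was Zfp57, a KRAB zinc-finger protein that guides Trim28 to imprinted loci. It was at 307 to 545 TPM in DMSO, 290 to 354 in AA, 166 to 188 in 2i and 148 to 186 in AA+2i. Its fold change was −0.99 with 2i (SE 0.23, adjusted p = 0.0334, edgeR) and −0.99 with AA+2i (SE 0.23, adjusted p = 0.0218). Corrected for GC, these were −0.86 and −0.74 and no longer passed (adjusted p = 0.138 and 0.152, edgeR), and no partner was called against DMSO. For the corrected average effects, Atf7ip2 was higher with AA (0.45, adjusted p = 0.0303, edgeR, background 10.4%), and with 2i Daxx was higher (0.30, adjusted p = 0.0176) and D14Abb1e lower (−0.48, adjusted p = 0.0121), where 26.3% of all tested genes were called. Of 5 readers, Uhrf2, a hemimethyl-DNA and H3K9me3 binding protein, rose with 2i on average (0.75, SE 0.19, adjusted p = 0.0247, edgeR, background 13.3%). Cdyl2 fell with AA+2i (−2.31, adjusted p = 0.0453, edgeR, background 8.34%) from a level of only 0.20 to 0.37 TPM with DMSO, which DESeq2 and limma did not call. Of the other 4 H3K9 methyltransferases 3 were tested, and Mecom, at only 0.24 to 0.53 TPM with DMSO, fell with 2i on average (−1.22, adjusted p = 0.0455, edgeR, background 13.3%). None of the 3 H4K20 methyltransferases (Suv420h1, Suv420h2 and Setd8) passed the edgeR test with AA, 2i or AA+2i, none had an unadjusted p under 0.05 there, and DESeq2 and limma called none.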

How the data were processed

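RNA of 12 libraries was measured (3 replicates of each of 4 conditions). The expected counts deposited for each gene were estimated by the authors with RSEM 1.2.4 from trimmed reads aligned with Bowtie to RefSeq genes of mm9, and are not normalized. The TPM that the authors deposited come from the same RSEM run, scaled for length and library. One malformed TPM cell (1 cell of AA C, in a gene outside the set) was recomputed from the FPKM that the authors deposited in the same table.

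After rounding, the expected counts were analysed by the quasi-likelihood test of edgeR 4.0.16 (R 4.3.3), with RLE factors and 1 mean per condition over the 12 libraries. Genes needed a minimum of 10 counts in 3 or more libraries (13400 of 20325 genes). Benjamini-Hochberg adjusted p-values over these genes were called under 0.05. Standard errors were derived from the fold change and the F statistic. The study used EB-seq, which was not installed. For the GC correction, log2 CPM (prior count 2) less the mean over libraries was smoothed against transcript GC content by loess (span 0.4), library by library, and the curve entered the model as an offset. Of the tested genes, 99.28% had a GC value. Alternatives were TMM factors, DESeq2 1.42.0, limma 3.58.1 on log2(TPM + 1) and log2(TPM + 0.1), other filters, a model of the compared groups, the replicate letter as a block, and each library left out. Fits without DMSO A and AA A, and GC-corrected fits with libraries left out, were added after the data were seen. Within-library shares and ratios were tested by exact permutation within strata, in Python 3.11.15. The tests were tried on simulated data. p-values measure the spread between these replicates of 1 line.

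The 9 genes and the lists were chosen with earlier results of these data known. All 9 are named with values, and of each other list the genes called in any comparison of the uncorrected fit, at most 5 with the largest change, besides Kdm3b and Kdm1a. Genes of these lists called only with the GC correction were named after their values were seen. The genes most alike are those with the highest Pearson's r. Sequences and positions are from the GENCODE annotation of NCBIM37 (mm9).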

Additional observations from a re-analysis of the deposited data

How the results depend on the processing

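The direction of Suv39h1 with AA+2i held under every alternative run (−0.61 to −0.92 on the log2 scale). The number of the 9 genes called with AA+2i against DMSO was 1, and 0 in a model of only the compared groups and 0 to 1 with a library left out. For the average effect of 2i it was 0 to 1 with a library left out and 0 without DMSO A and AA A. DESeq2 and the GC correction each called 1 gene, Suv39h1, for AA+2i against AA and for the average effect of AA, and the corrected fit without DMSO A and AA A called 1 for the average effect of AA but not for AA+2i against AA (adjusted p = 0.0705, edgeR), and the GC correction called 1 with 2i. Why these calls depend on the setting was not tested. On the TPM scale the median of all tested genes moved by −0.13 (2i) and −0.15 (AA+2i) against DMSO, and the values of the 9 genes are to be read against it.

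The replicate letters were not read as pairs, since same-lettered libraries did not always deviate together (r of −0.588 to 0.894 over 18 pairs). On average, however, same-lettered libraries did deviate together, with a mean r of 0.401, and 0.325 after the GC correction. The mean r over different letters was −0.196 and −0.161. It adds nothing to this, since deviations were taken from the mean of the 3 libraries of each condition, which ties it to the same-letter value with opposite sign. What the letters share is not stated in the labels. With the letter as a replicate block, 1 gene was called with 2i (Cbx5, −0.65, adjusted p = 0.0441, edgeR), 2 with AA+2i and 2 for the average effect of 2i (Suv39h1 and Cbx5 in both). The GC correction with replicate block called 1 gene with AA, 3 with 2i (Suv39h1, Setdb1 and Cbx5), 2 with AA+2i, 1 for AA+2i against AA, 1 for the average effect of AA and 2 for that of 2i.

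After the GC correction the log2 ratio of Suv39h1 to Suv39h2 changed by −0.30 with 2i and −0.25 with AA, that of Ehmt1 to Ehmt2 by 0.06 and 0.05 and that of Setdb1 to Trim28 by 0.04 and 0.26, and the Cbx1 share by −0.82 points with AA. With a library left out, as deposited, Suv39h1 to Suv39h2 ranged from −0.22 to 0.01 with 2i and −0.21 to 0.05 with AA, Setdb1 to Trim28 from −0.36 to 0.13 with AA, the Cbx1 share from −0.97 to 1.11 points with AA, and the Cbx3 share from −1.23 to 1.13 with 2i and −0.11 to 2.25 with AA. In expected counts, which are not scaled for length, the differences of neighbours in the order of levels were −0.46 for Cbx3 and Trim28, −0.04 for Trim28 and Cbx5, 3.03 for Cbx5 and Cbx1, −1.51 for Cbx1 and Setdb1 and −0.01 for Suv39h1 and Ehmt1, so that 3 called orders turned. Ehmt2 less Suv39h1 ranged from −0.07 to 0.22 with a library left out. The corrected ratios were not recomputed with libraries left out.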
